A study of Mus musculus with 9 samples.

Results

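The genes described here are 10 regulators of the G1 phase of the cell cycle: the D-type cyclins Ccnd1, Ccnd2 and Ccnd3, the cyclin-dependent kinases Cdk4 and Cdk6 that they activate, the kinase inhibitors Cdkn1a, Cdkn1b and Cdkn2c, the retinoblastoma gene Rb1 and the transcription factor gene Myc. They and the other gene lists below were chosen with earlier results of these data known. Their shares of calls set beside all genes are thus descriptions. The rows of the 10 were taken by symbol, and all 10 were found among the 40879 gene symbols of each count file. All 10 also passed the filter on low counts, which kept 13251 genes. D-type cyclins bind CDK4 or CDK6, and the active kinases phosphorylate the retinoblastoma protein, which releases E2F factors and lets a cell enter S phase. Cdkn1a (p21) and Cdkn1b (p27) encode inhibitors of cyclin-kinase complexes, Cdkn2c (p18) encodes an inhibitor that binds CDK4 and CDK6, and MYC drives growth and cell cycle genes. Conventional dendritic cells still divide as precursors and largely stop as they mature, and their use of the Myc relative Mycl in place of Myc is known.

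The study sorted conventional type 2 dendritic cells (cDC2s) from mouse bone marrow cells grown for 9 days with 100 ng/ml recombinant human Flt3L, the cytokine that drives dendritic cell growth. Each of 3 groups had 3 libraries. WT cells were wild type, IFNa cells were wild type given interferon alpha on day 5, and A20 KO cells, titled A20iKO, had the genotype A20fl/fl x CD11ccre. In the last group a Cre driven by CD11c, a gene that dendritic cells and some macrophages express, is meant to delete the floxed gene of A20, the ubiquitin-editing brake on NF-kB that Tnfaip3 encodes. A protocol entry of the labels names IFNa on day 5 for all 9 libraries, while the titles and a treatment entry name it for 3, and the groups follow the titles. Each group came from 3 mice. The sources used here do not say how mice and libraries correspond, so the p-values measure the spread between these libraries, which may be technical in part.

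Each library is a 3' tag library, in which a transcript gives a read at its end, so levels were compared between genes without a length. Levels are CPM, a gene's count scaled to a common library total with TMM factors. Each error is an SD over n = 3 libraries. Total counts ran from 6900598 to 10552756 per library. The counts of Tnfaip3 were 232, 51 and 42 for WT, 73, 84 and 74 after IFNa, and 285, 476 and 377 for A20 KO; the sources used here do not name the deleted exons, so these 3' tags check nothing about the deletion. The 7 general dendritic cell markers summed to 23398 to 29910 CPM (WT), 16856 to 19977 CPM (IFNa) and 11391 to 12473 CPM (A20 KO), with no overlap between groups, and the 10 lymphocyte markers to 0.883 to 27.8 CPM over all libraries. The 13 stromal markers differed between libraries of the same group, with sums of 812 to 4715 CPM (WT), 618 to 4845 CPM (IFNa) and 487 to 4481 CPM (A20 KO). The libraries of highest Col1a1, a collagen gene, were WT replicate 2 (2750 CPM), IFNa replicate 3 (3105) and, for A20 KO, replicate 1 (2720). The other libraries held 286 to 1475 CPM, and the calls among the 10 genes are given below with and without these 3 libraries. In all 3 groups that library was also the lowest of its group for Ccnd1, Ccnd2, Ccnd3, Cdk4, Cdkn1a and Rb1.

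To show where the data on the kinases can be read against sequence, the 250 bases before the transcription start were taken from RefSeq (GRCm38.p6). The table held such windows for 6 of the 10 genes, namely Ccnd3, Cdk4, Cdk6, Cdkn1a, Cdkn1b and Cdkn2c; Ccnd1, Ccnd2, Rb1 and Myc had no entry. Each was searched on both strands for CACGTG, the E-box that MYC and its partners bind, for the interferon-stimulated response element and for 3 forms of the NF-kB site, of which the strictest is a case of the loosest. The windows of both kinases and 1 of the 2 windows of Cdkn1a are shown, each on the plus strand and written 5′ to 3′, with every match in capitals.
Cdk4, chr10:127063285-127063534: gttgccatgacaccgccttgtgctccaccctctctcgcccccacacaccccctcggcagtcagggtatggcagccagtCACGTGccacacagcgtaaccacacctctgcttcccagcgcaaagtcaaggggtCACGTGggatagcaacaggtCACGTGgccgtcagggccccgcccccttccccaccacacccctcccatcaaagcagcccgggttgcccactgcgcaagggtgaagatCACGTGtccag
Cdk6, chr5:3343643-3343892: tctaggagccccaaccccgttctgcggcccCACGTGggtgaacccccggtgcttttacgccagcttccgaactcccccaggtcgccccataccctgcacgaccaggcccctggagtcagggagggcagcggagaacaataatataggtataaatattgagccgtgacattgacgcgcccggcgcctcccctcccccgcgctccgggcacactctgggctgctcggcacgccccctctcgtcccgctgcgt
Cdkn1a, chr17:29093519-29093768: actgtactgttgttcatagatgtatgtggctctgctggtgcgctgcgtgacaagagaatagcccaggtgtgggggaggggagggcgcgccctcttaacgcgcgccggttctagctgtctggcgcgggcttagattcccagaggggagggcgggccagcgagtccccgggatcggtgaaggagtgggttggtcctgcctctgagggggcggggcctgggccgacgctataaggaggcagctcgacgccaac
The Cdk4 window held 4 E-boxes and the Cdk6 window 1, while 6.02% of the 32851 windows of this length in the table held at least 1 and 0.0213% held 4 or more. The cut of 4 is the number seen in the Cdk4 window, so the last share is a description only. None of the windows of these 6 genes held the response element (2.98% of all windows) or any form of the NF-kB site (0.14%, 0.365% and 1.21%). A match is a string of letters in this window and says nothing of binding in these cells.

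In WT cDC2s Ccnd1 stood highest of the 10. Ccnd1 was read at 1378, 1173 and 1553 CPM in WT replicates 1 to 3, a mean of 1368 ± 190 and above 99.6% of the genes kept. Ccnd3 followed at 375 ± 81.5 CPM, Cdkn1a at 249 ± 65.5, Ccnd2 at 212 ± 29.5 and Cdkn1b at 166 ± 39.0. Neighbours in order among these 4 overlapped between libraries. Lower down were Cdk4 at 81.0 ± 25.8 CPM, Rb1 at 55.2 ± 11.3, Cdk6 at 33.7 ± 3.45, Myc at 26.9 ± 8.53 and Cdkn2c at 15.2 ± 3.55. In this lower part only Rb1 and Cdk6 were neighbours without overlap. Ccnd1 stood clear of Ccnd3, and Cdkn1b of Cdk4. With IFNa, Ccnd2 stood next after Ccnd1 and was clear of Cdkn1a below it, and in A20 KO the kinase Cdk6 followed Cdkn1a, Ccnd2 and Ccnd3 and overlapped with Ccnd3.

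**Figure D1:**
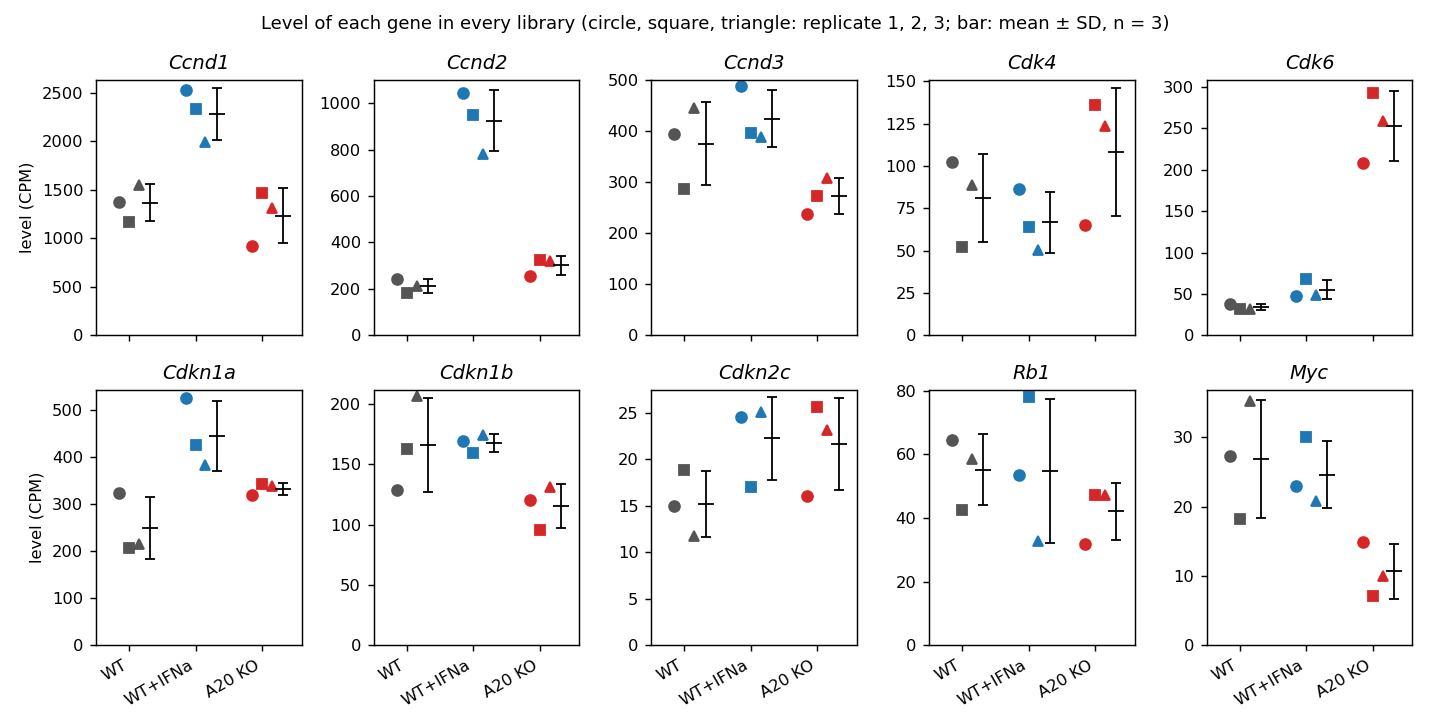
Level of each of the 10 genes in CPM (vertical axis, from 0) in the 9 libraries; circles, squares and triangles are replicates 1, 2 and 3, and the bar is the mean ± SD of n = 3. Ccnd2 with IFNa (782 to 1043 CPM) and Cdk6 in A20 KO (209 to 293 CPM) lie far from the other groups.

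With IFNa, Ccnd2, Ccnd1 and Cdkn1a rose over WT, and none of the 10 fell. This was 3 of 10 genes, against 3.1% of all 13251 genes tested (edgeR quasi-likelihood test, Benjamini-Hochberg adjusted p under 0.05 over all genes); 2.4% of all genes rose. Over the 10 the log2 fold changes had a median of 0.36, against -0.02 over all genes. The libraries of both groups did not overlap for 4 of the 10, the same 3 and Cdk6, against 18.2% of all genes. Over all genes, 77.4% of the calls were higher. This share became 60.9% with scaling by library size alone, which moved the median of all genes to -0.15. The single gene Gm26917 held 5.21% to 11.4% of all counts in the WT libraries and 12.2% to 17.3% with IFNa. In A20 KO it held 12.3% to 13.8%, and its part in the effect of scaling was not tested. In bulk libraries, fewer cells of a kind and less RNA per cell cannot be told apart, and IFNa was present during culture, before the sort. The bearing of a change in which cells were sorted was not tested. The 12 monocyte and macrophage markers summed to 1059 to 1278 CPM in WT and 2156 to 2600 with IFNa. Of these 12, 4 rose and 1 fell. The 10 mature dendritic cell markers summed to 235 to 318 and 778 to 788 CPM, and 7 rose and 0 fell. The 10 neutrophil markers summed to 101 to 123 and 327 to 377 CPM, and 3 rose and 0 fell. Among conventional dendritic cell markers, 3 of 7 general ones, 3 of 10 of cDC2s and 2 of 8 of cDC1s fell, and 0 rose. The part of these markers in these results was not tested.

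Ccnd2, the cyclin gene that growth factors and cytokines induce in many blood cells, had the largest change of the 10 with IFNa against WT. It was read at 241, 182 and 214 CPM in the WT libraries and at 1043, 952 and 782 CPM with IFNa. Every IFNa library was thus over 3 times as high as the highest WT library. The rise was 2.13 on the log2 scale (SE 0.167; adjusted p = 4.76e-06), or 4.36-fold. Without the 3 libraries of highest Col1a1 it was 2.14 (adjusted p = 5.33e-06). The call held in all 19 alternatives run, with a log2 fold change of 2.01 to 2.24.

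Ccnd1, the most abundant of the 10, was read at 2528, 2333 and 1998 CPM with IFNa against 1378, 1173 and 1553 CPM in WT. The groups did not overlap, and the rise was 0.74 on the log2 scale (SE 0.171; adjusted p = 0.0329), or 0.73 (adjusted p = 0.00237) without the 3 libraries of highest Col1a1. The call was lost when single libraries were left out: WT replicate 1 (adjusted p = 0.0719), WT replicate 2 (0.0909), WT replicate 3 (0.0553), IFNa replicate 1 (0.124), IFNa replicate 2 (0.0975) and A20 KO replicate 3 (0.0584). Ccnd3, the D-type cyclin gene most used by maturing lymphocytes, stood at 394, 286 and 446 CPM in WT and 488, 395 and 389 with IFNa, and these ranges overlapped (log2 fold change 0.18, SE 0.180; adjusted p = 0.802).

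The make-up of the D-type cyclins differed between the groups. Of the summed D-type cyclin level, Ccnd2 gave 10.9% ± 1.17 (WT), 25.4% ± 0.640 (IFNa) and 16.8% ± 1.22 (A20 KO). The 3 groups did not overlap, with 9.65% to 12.0%, 24.7% to 25.9% and 15.7% to 18.1%. Ccnd3 gave 19.1% ± 1.43, 11.7% ± 0.817 and 15.3% ± 1.88 in the same order, and Ccnd1 70.0% ± 1.52, 62.9% ± 0.575 and 67.9% ± 3.03. Summed, the 3 cyclins reached 1956 ± 290 CPM (WT), 3636 ± 447 CPM (IFNa) and 1807 ± 350 CPM (A20 KO). These shares and sums are descriptions and were not tested.

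**Figure D2:**
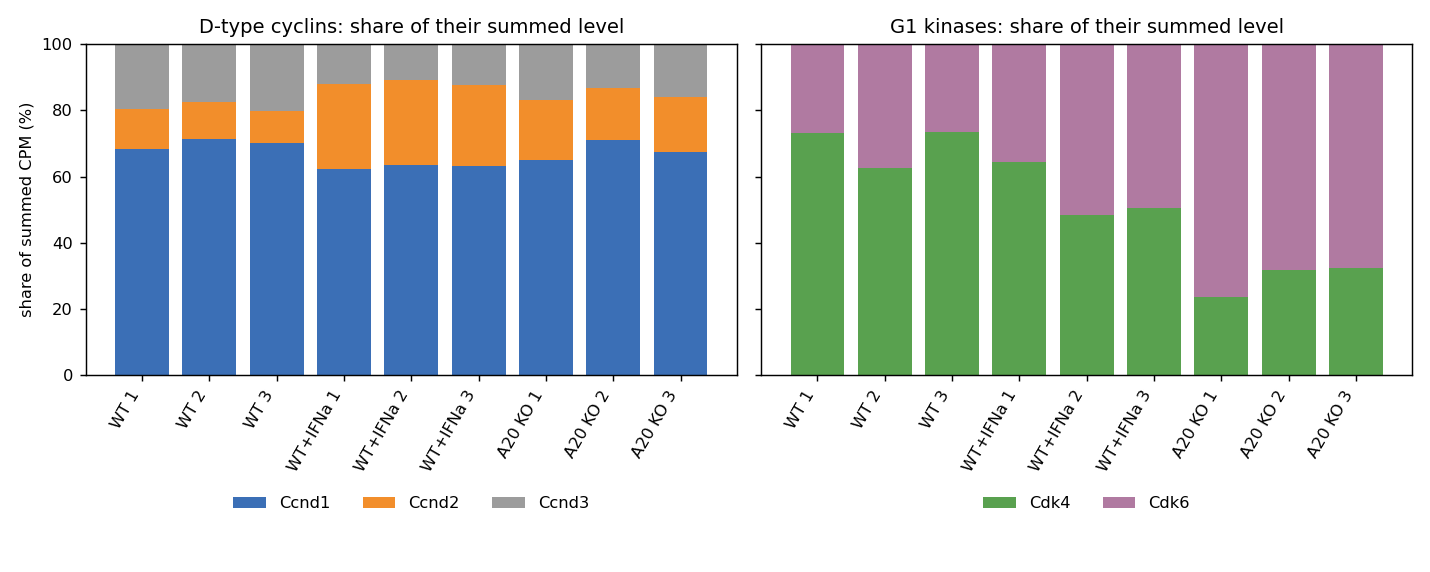
Share of each gene (vertical axis, %) in the summed CPM of the D-type cyclins (left) and of the G1 kinases (right), 1 bar per library. The Ccnd2 share is 24.7% to 25.9% in the IFNa libraries, and Cdk6 takes 67.7% to 76.2% of the kinase level in the A20 KO libraries against 26.7% to 37.4% in WT.

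Cdkn1a, which encodes p21, a p53 target that can halt the cycle, was read at 527, 426 and 383 CPM with IFNa and 324, 207 and 215 CPM in WT. All IFNa libraries lay above all WT libraries, and the rise was 0.84 on the log2 scale (SE 0.187; adjusted p = 0.0262), or 0.82 (adjusted p = 0.0488) without the 3 libraries of highest Col1a1. The call was lost with only the 2 groups in the fit (adjusted p = 0.0604) and without WT replicate 2 (0.0736), WT replicate 3 (0.137), IFNa replicate 1 (0.141) or IFNa replicate 2 (0.0776). The other inhibitors did not pass: Cdkn1b stood at 166 ± 39.0 and 168 ± 7.74 CPM and Cdkn2c at 15.2 ± 3.55 and 22.2 ± 4.50 CPM in WT and with IFNa.

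Of the kinases, Cdk6 stood at 37.7, 31.3 and 32.2 CPM in WT and 47.5, 68.0 and 49.2 CPM with IFNa. The groups did not overlap, but the difference of 0.70 on the log2 scale did not pass (SE 0.198; adjusted p = 0.091). It passed with DESeq2 (adjusted p = 0.0253), with no filter on low counts (0.0481) and with a stromal covariate (0.0302). Cdk4 overlapped between the groups at 81.0 ± 25.8 and 66.7 ± 18.2 CPM, as did Rb1 at 55.2 ± 11.3 and 54.7 ± 22.7 CPM and Myc at 26.9 ± 8.53 and 24.6 ± 4.81 CPM. In the reference annotation the exons of 7 of the 10 genes overlap a gene on the opposite strand: Ccnd1 with LTO1, Ccnd2 with 9330179D12Rik and Gm43126, Ccnd3 with Bysl, Cdk4 with Tspan31, Cdk6 with Gm17590, Cdkn1a with AC167363.2, and Rb1 with Lpar6 and Rcbtb2. The sources used here do not give the strand setting of the counting, so reads of these pairs may not be told apart, for the genes that passed the test as well.

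In A20 KO against WT, Cdk6 rose and Myc fell. These were 2 of the 10 genes, against 10.7% of all genes tested, of which 5.77% rose and 4.91% fell. The share of the 10 is not far above this background. The groups did not overlap for 3 of the 10 (Ccnd2, Cdk6 and Myc), against 28% of all genes, with a median log2 fold change of 0.13 over the 10 and -0.01 over all genes. At an unadjusted p under 0.05, 6 of the 10 passed, as did 2956 of all 13251 genes.

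Cdk6, the G1 kinase most used by blood stem and progenitor cells, was read at 209, 293 and 259 CPM in A20 KO against 37.7, 31.3 and 32.2 CPM in WT. The lowest A20 KO library was over 5 times as high as the highest WT library. The rise was 2.91 on the log2 scale (SE 0.209; adjusted p = 1.98e-06), or 7.51-fold, and Cdk6 was 27th of the 13251 genes by p. Without the 3 libraries of highest Col1a1 it was 2.98 (adjusted p = 2.04e-05), and the call held in all 19 alternatives run (2.79 to 3.03). The 8 progenitor markers summed to 61.4 to 117 CPM (WT), 81.7 to 113 CPM (IFNa) and 318 to 388 CPM (A20 KO). Of the 6 that could be tested, 4 rose in A20 KO (Sox4, Kit, Myb and Cd34), and their part in the rise of Cdk6 was not tested. The 10 mature dendritic cell markers summed to 1846 to 2131 CPM in A20 KO, where 9 of 10 rose over WT. The 12 monocyte and macrophage markers summed to 2498 to 2787 CPM, and 10 of 12 rose and 1 fell. The 10 neutrophil markers summed to 272 to 384 CPM, and 3 rose and 2 fell. The 8 plasmacytoid dendritic cell markers summed to 680 to 803 CPM in WT and 845 to 1039 CPM in A20 KO. Of the 7 that could be tested, 4 rose and 1 fell. Of the markers of conventional dendritic cells, 5 of 7 general ones, 6 of 10 of cDC2s and 5 of 8 of cDC1s fell in A20 KO, while 4 of the 10 cDC2 markers rose. The part of these markers in the changes of Cdk6 and Myc was not tested.

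Cdk4 had no such change, at 65.1, 136 and 123 CPM in A20 KO and 102, 52.3 and 88.6 CPM in WT (log2 fold change 0.42, SE 0.311; adjusted p = 0.507). The lowest A20 KO value came from the library of highest Col1a1. The kinase make-up differed accordingly: Cdk6 gave 26.9%, 37.4% and 26.7% of the summed Cdk4 and Cdk6 level in the WT libraries. The share was 35.5%, 51.6% and 49.6% after IFNa, and 76.2%, 68.3% and 67.7% for A20 KO. By these counts Cdk4 was thus the more abundant kinase transcript in every WT library and Cdk6 in every A20 KO library. Both overlap a gene on the opposite strand, as given above, which may affect their levels unequally. The summed level was 115 ± 28.6 CPM in WT and 362 ± 79.5 in A20 KO.

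Myc was the only one of the 10 that fell in A20 KO. It was read at 14.9, 7.04 and 10.0 CPM, from 113, 62 and 95 counts, against 27.4, 18.2 and 35.2 CPM in WT, from 279, 136 and 347 counts. The groups did not overlap, and Myc fell by 1.34 on the log2 scale (SE 0.376; adjusted p = 0.0368), or by 1.87 (adjusted p = 0.0159) without the 3 libraries of highest Col1a1. This call was close to the threshold. It was lost with only the 2 groups in the fit (adjusted p = 0.0761) and without WT replicate 1 (0.0888), WT replicate 3 (0.156), IFNa replicate 1 (0.0625), IFNa replicate 2 (0.0625), IFNa replicate 3 (0.0575), A20 KO replicate 2 (0.156) or A20 KO replicate 3 (0.12).

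Ccnd2 stood at 255, 325 and 322 CPM in A20 KO, all above the WT libraries, and lay just short of the threshold (log2 fold change 0.50, SE 0.161; adjusted p = 0.0675). It passed in 6 of 19 alternatives, among them DESeq2 (adjusted p = 0.00978) and the fit without the 3 libraries of highest Col1a1 (0.0212), and without A20 KO replicate 1 alone (0.036). Ccnd1 overlapped between A20 KO and WT at 917, 1469 and 1314 CPM and 1378, 1173 and 1553 CPM (log2 fold change -0.15; adjusted p = 0.706). Ccnd3 stood at 237, 273 and 309 CPM in A20 KO (log2 fold change -0.46, SE 0.181; adjusted p = 0.142), and passed without the 3 libraries of highest Col1a1 (0.0469), without WT replicate 2 alone (0.0292) and with a stromal covariate (0.0173). The Ccnd3 call thus depended on these settings.

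Among the inhibitors, Cdkn1a stood at 319, 342 and 339 CPM in A20 KO, and overlapped only with the highest WT library, replicate 1 at 324 CPM (log2 fold change 0.42, SE 0.186; adjusted p = 0.198). Without WT replicate 1 it was 0.67 higher (adjusted p = 0.0313), and with the stromal covariate 0.43 higher (0.0434). Cdkn1b stood at 116 ± 18.4 CPM in A20 KO (log2 fold change -0.52, SE 0.193; adjusted p = 0.116) and Cdkn2c at 21.6 ± 4.99 CPM (0.51, SE 0.338; adjusted p = 0.436). Rb1 stood at 42.1 ± 9.00 CPM (-0.39, SE 0.308; adjusted p = 0.537).

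**Figure D3:**
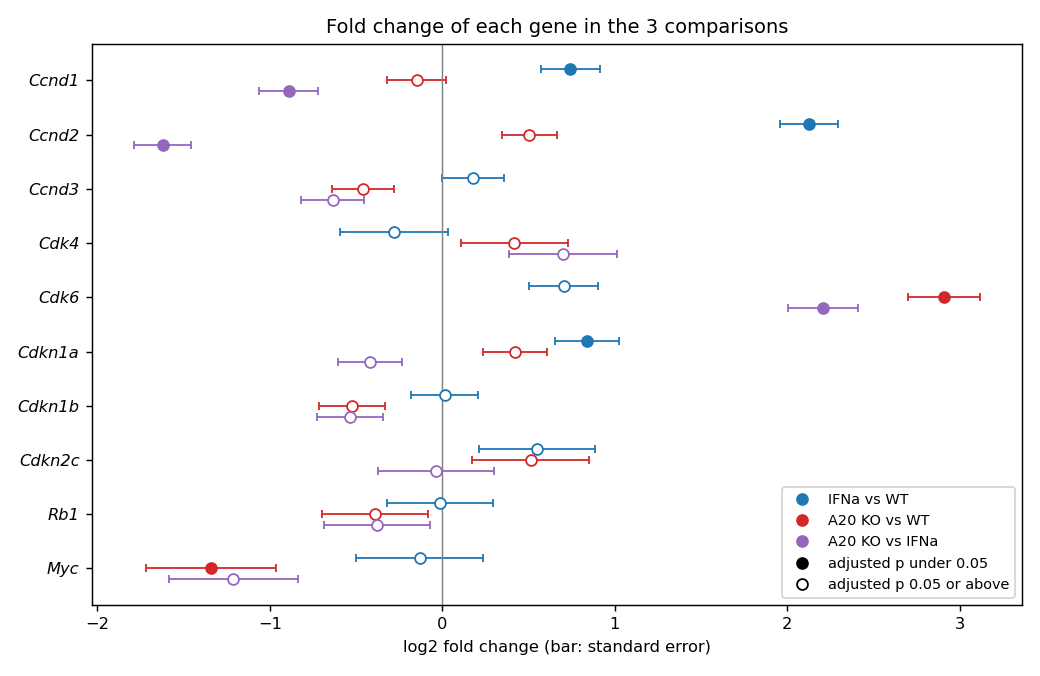
Log2 fold change of the 10 genes (horizontal axis) with its standard error in the 3 comparisons; filled points have an adjusted p under 0.05. Ccnd2 at 2.13 with IFNa and Cdk6 at 2.91 in A20 KO stand apart, and Myc is the filled point left of 0 for A20 KO vs WT.

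The direct comparison of A20 KO with IFNa asked where the 2 departures from WT differed. Cdk6 was higher in A20 KO, and Ccnd2 and Ccnd1 were lower. These were 3 of the 10 genes, against 5.46% of all genes tested, of which 2.05% were higher and 3.41% lower. Over all genes 37.5% of the calls were higher, or 49.4% with scaling by library size alone, which moved the median of all genes to 0.12. The groups did not overlap for 7 of the 10 genes, against 24.6% of all genes, with a median log2 fold change of -0.48 over the 10 and 0.02 over all genes.

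Cdk6 was 2.21 higher in A20 KO than with IFNa on the log2 scale (SE 0.203; adjusted p = 3.11e-05). For Ccnd2 the difference was -1.62 (SE 0.165; adjusted p = 6.5e-05), so that its rise with IFNa was larger than its difference between A20 KO and WT. For Ccnd1 it was -0.89 (SE 0.172; adjusted p = 0.00784). These 3 calls held in all 19 alternatives run, and without the 3 libraries of highest Col1a1 they were 2.25, -1.63 and -0.81. Myc (-1.21, SE 0.376; adjusted p = 0.0911) and Ccnd3 (-0.64, SE 0.181; adjusted p = 0.0633) did not overlap between these groups and did not pass, nor did Cdkn1a (-0.42; adjusted p = 0.276) and Cdkn1b (-0.54; adjusted p = 0.155). Cdk4 overlapped between these groups, was 0.70 higher in A20 KO and did not pass (SE 0.313, adjusted p = 0.282). It passed with no filter on low counts (0.0486) and with the stromal covariate (0.0419). Without the 3 libraries of highest Col1a1 both Myc (-1.64, adjusted p = 0.0461) and Ccnd3 (-0.60, adjusted p = 0.0403) passed, and Ccnd3 passed in 7 of the 19 alternatives, WT replicate 2 alone left out (0.0215) among them. The fit of all 9 libraries thus did not show that Myc differed between A20 KO and IFNa. The comparisons share libraries, so their values are not separate lines of evidence.

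Of the other genes of the G1 to S phase machinery, 27 partners were tested, and 4 rose and 1 fell in A20 KO against WT, with a median log2 fold change of 0.42. Over all genes 5.77% rose and 4.91% fell, shares that apply to the other lists too. Cks1b, which encodes a kinase-binding subunit needed to degrade p27, rose from 70.2 ± 22.0 to 187 ± 1.76 CPM (adjusted p = 0.000793). Ccne1, the cyclin that acts after the D-type cyclins, rose from 10.4 ± 4.78 to 37.6 ± 8.35 CPM (adjusted p = 0.00821). E2f2, an E2F activator, rose from 134 ± 22.6 to 226 ± 26.1 CPM (adjusted p = 0.0105), a call lost without WT replicate 3 (0.058) or A20 KO replicate 3 (0.063). Cdkn2b, the p15 inhibitor gene next to Cdkn2a, had no count in WT and 110 counts over the A20 KO libraries, at least 38.9-fold higher against a floor of 3 counts over the group, and lost its call without A20 KO replicate 3 (adjusted p = 0.0699) and without the 3 libraries of highest Col1a1 (0.0745). Tfdp2, an E2F dimer partner, fell from 39.2 ± 12.4 to 14.1 ± 8.01 CPM (adjusted p = 0.0377). That call was lost without any of WT replicate 1 or 2, IFNa replicate 1, 2 or 3 and A20 KO replicate 2 or 3, at adjusted p up to 0.12. The count of 5 fell to 2 without A20 KO replicate 3. With IFNa, 0 of the 27 passed by edgeR (the difference between these counts was not tested), 6 had an unadjusted p under 0.05, DESeq2 called 2 and limma-voom 0.

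Replication and mitosis genes, which are transcribed in S phase and later, had log2 fold changes above 0 for all 30 genes in both comparisons with WT. In A20 KO this held under every alternative run, while with IFNa it was 27 to 29 of 30 under 7 of them, 28 with scaling by library size alone (Pcna and Rrm2 below 0). In A20 KO 22 of 30 rose and none fell, at a median of 1.08. With IFNa 6 of 30 rose and none fell, at a median of 0.54, against 2.4% of all genes that rose. This count was 2 with library size alone or only the 2 groups, 3 with limma-voom or the replicate block, 9 with no filter and 10 with the stromal covariate. Birc5, which encodes the mitotic protein survivin, rose from 72.1 ± 7.98 CPM in WT to 152 ± 28.0 with IFNa (adjusted p = 0.00278) and 236 ± 7.01 in A20 KO (adjusted p = 3.11e-05). In A20 KO the mitotic cyclin gene Ccnb1 rose from 15.4 ± 3.46 to 68.2 ± 12.1 CPM, the topoisomerase gene Top2a from 441 ± 53.2 to 909 ± 60.1, and Cdc20, an activator of the anaphase-promoting complex, from 33.7 ± 2.50 to 94.2 ± 20.3 CPM. Without the 3 libraries of highest Col1a1 the counts were 19 in A20 KO and 4 with IFNa. The A20 KO count was 13 without A20 KO replicate 3. The IFNa count was 3 without WT replicate 1, WT replicate 2 or A20 KO replicate 3, and 2 without IFNa replicate 1 or A20 KO replicate 2.

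**Figure D4:**
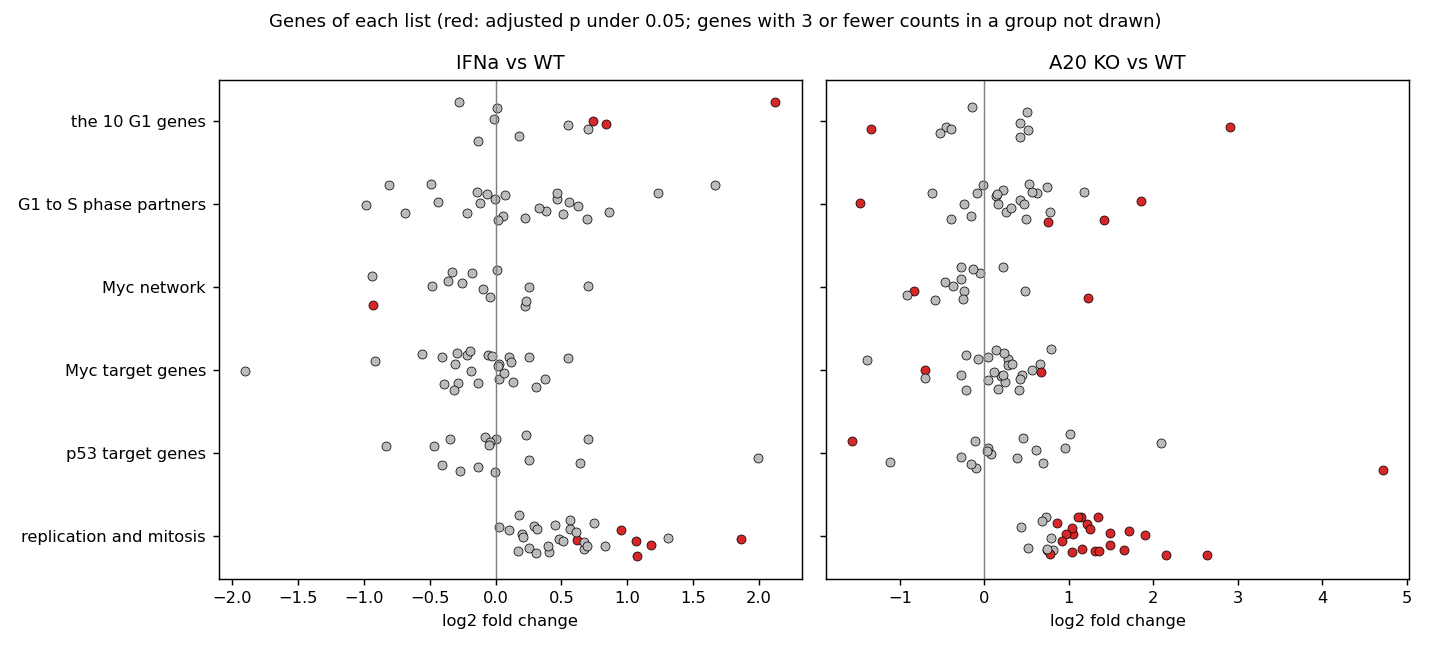
Log2 fold change (horizontal axis) of the genes of each list, 1 point per gene, with IFNa vs WT on the left and A20 KO vs WT on the right; red points have an adjusted p under 0.05, and genes with 3 or fewer counts in a group are not drawn. All 30 replication and mitosis genes lie right of 0 in both panels, with 6 and 22 past the threshold; with scaling by library size alone it is 28 for IFNa.

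The Myc network list holds relatives, dimer partners, antagonists and cofactors of MYC, among them Max, the Mxd genes, Mlx, Pim1, Usp28 and Trrap. Of 14 network genes tested, 1 rose (Mxd1) and 1 fell (Mxd4) in A20 KO, near the 10.7% called over all genes, and Mxd4 fell with IFNa. Mxd1, which encodes a MYC antagonist, rose from 28.6 ± 14.3 to 67.3 ± 6.31 CPM in A20 KO (adjusted p = 0.0224), and lost this call without WT replicate 2 (0.0611), WT replicate 3 (0.094), A20 KO replicate 2 (0.0843), A20 KO replicate 3 (0.066) or the 3 libraries of highest Col1a1 (0.0795). Mxd4, a related antagonist gene, fell from 155 ± 10.6 CPM to 81.2 ± 12.7 with IFNa (adjusted p = 0.0102) and 87.1 ± 11.5 in A20 KO (adjusted p = 0.00837). Its IFNa call was lost without IFNa replicate 2 (0.0543) or 3 (0.0546). Of 26 Myc target genes, 1 rose (Dkc1) and 1 fell (Fbl) in A20 KO, a share below the 10.7% over all genes, at a median log2 fold change of 0.21. Dkc1, a pseudouridine synthase gene, stood at 147 ± 8.70 and 234 ± 41.6 CPM in WT and A20 KO (adjusted p = 0.0289), and Fbl, the fibrillarin gene, at 66.9 ± 6.74 and 40.9 ± 6.49 CPM (adjusted p = 0.042). The Dkc1 call was lost on leaving out replicate 2 or 3 of WT or of A20 KO, at adjusted p up to 0.134, and the Fbl call without each of the 9 libraries in turn, at adjusted p of 0.0547 to 0.136. Without the 3 libraries of highest Col1a1 the Fbl call was lost too (log2 fold change -0.54, adjusted p = 0.208). With IFNa 0 of the 26 passed by edgeR, 1 had an unadjusted p under 0.05, and DESeq2 and limma-voom called 0.

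Of the p53 target genes other than Cdkn1a, 0 of 18 tested passed by edgeR with IFNa, with 1 at an unadjusted p under 0.05 and 0 by DESeq2 and limma-voom, at a median log2 fold change of -0.05. In A20 KO 2 rose and 1 fell, against 10.7% called over all genes, at a median of 0.23. Fas, the death receptor gene, rose from 1.01 ± 0.728 to 26.3 ± 5.81 CPM (adjusted p = 0.00242). Tnfrsf10b, another death receptor gene, had no count in WT and 117 counts over the A20 KO libraries, at least 41.4-fold higher (adjusted p = 0.0367), and lost its call without any single WT or A20 KO library, at adjusted p up to 0.151. Btg2, an antiproliferative gene, fell from 297 ± 85.7 to 101 ± 17.5 CPM (adjusted p = 0.000553).

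Genes whose log2 CPM over the 9 libraries was most like that of a member were found by Pearson r among all genes kept. For Ccnd2 they were Ifitm3 (r = 0.989), Ccl6 (0.984) and Phf11b (0.984), and for Ccnd1 Gvin3 (0.989), Smarcc2 (0.982) and St8sia1 (0.973). For Cdkn1a they were Usp25 (0.984) and Calhm6 (0.967), for Cdk6 Rnf149 (0.991), C3 (0.989) and Marcksl1 (0.988), and for Myc Mettl7a1 (0.975) and Mettl21a (0.948). Ifitm3, whose product blocks virus entry, had means of 1263 CPM (WT), 3559 CPM (IFNa) and 1722 CPM (A20 KO), the same order as Ccnd2. Marcksl1, a marker of mature dendritic cells, stood at 22.0, 45.5 and 179 CPM, the order of Cdk6. The 9 points share 3 groups and the libraries' depth and stromal level, so these values of r are descriptions. These genes were picked for their likeness, so a shared order of group means is largely fixed by that choice.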

How the data were processed

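The authors deposited whole-number read counts per gene symbol, 1 file per library, without normalization. The submitters' processing notes name GRCm39 and the tools fastp 0.23.1, Bowtie2, STAR 2.7.10b as well as featureCounts 2.0.6. The sources used here give no role for each tool, no annotation and no strand or multi-mapping setting. Groups and replicate numbers came from the titles. Genes were kept with filterByExpr (minimum count 10, minimum total 15), scaled by TMM factors and tested in 1 fit of all 9 libraries (6 residual degrees of freedom) with edgeR 4.0.16 in R 4.3.3. Benjamini-Hochberg adjustment ran over the 13251 genes kept, and standard errors were derived from the F statistic. The code was tested on simulated data. Libraries of a group differed beyond sampling noise (chi-square per degree of freedom of at least 14.4) and each counted as 1 replicate.

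The members and lists were chosen with earlier results of these data known. From each list, up to 5 genes past the threshold in any comparison are named, by smallest p, and for each member past it the 3 genes of highest r (log2 CPM, prior count 2; predicted genes left out). A few genes that these rules select are not reported here. Alternatives were other scaling factors, DESeq2 1.42.0, limma-voom 3.58.1, no filter, pairwise fits, a replicate block, a stromal covariate (mean log2 CPM of the stromal markers) and left-out libraries. The RefSeq promoter table is of GRCm38.p6 and the annotation used for overlapping genes is GENCODE M21, another build than that of the counts, and they served for sequences and names only. Bounds cover counting error only.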

Additional observations from a re-analysis of the deposited data

How the results depend on the processing

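Of 570 recomputed fold changes of the 10 genes (19 alternatives each), 506 kept direction and side of the threshold, 21 lost and 24 gained a call, and 19 changed sign, all in values that did not pass. Cdkn1b with IFNa vs WT became -0.12 with library size alone, -0.00407 with upper-quartile factors and -0.026 without the 3 libraries of highest Col1a1 (-0.14 to 0.20 with single libraries left out). Cdkn2c in A20 KO vs IFNa became 0.064 and 0.23 with library size alone and without the 3 libraries (-0.20 to 0.14), and Rb1 with IFNa vs WT 0.028 and 0.10 with the stromal covariate and without the 3 libraries (-0.35 to 0.25). With single libraries left out, Ccnd1 in A20 KO vs WT ran from -0.30 to 0.024, the latter without A20 KO replicate 1, and Myc with IFNa vs WT from -0.35 to 0.11, the latter without WT replicate 3.

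For IFNa vs WT, DESeq2 called 700 and the stromal covariate 707 genes, against 411, and 1 to 3 of the 10 passed with single libraries left out. For A20 KO vs WT, 919 to 1372 genes passed with single libraries left out, against 1416; of the 10, 1 passed with only the 2 groups, 5 with the stromal covariate, 4 without the 3 libraries and 1 to 3 with single libraries left out, against 2. For A20 KO vs IFNa, DESeq2 called 1143 and the stromal covariate 1222 genes, against 723 (400 to 875 with single libraries left out, the lowest without IFNa replicate 1), and 5 of the 10 passed with no filter, the stromal covariate or without the 3 libraries, against 3. The cause was not tested.

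With the replicate block, 298 genes passed with IFNa against WT, 1075 in A20 KO against WT and 535 between A20 KO and IFNa, and of the 10 only 1 passed in A20 KO vs WT, since Myc did not (adjusted p = 0.0708); Ccnd1 did not with IFNa (0.0929). Deviations of same-numbered libraries correlated at r = -0.371 to 0.237, and WT replicate 2 correlated best with A20 KO replicate 1 (r = 0.35). Both of these, and IFNa replicate 3 (r = 0.358 with A20 KO replicate 1), are the libraries of highest Col1a1. A pairing by number could thus be hidden, and the check does not decide it. Levels near 10 CPM, as for Myc in A20 KO, rest on 62 to 113 counts a library.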

Other observations

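These genes were picked from the lists after their values were seen. Mycl, the Myc relative used by dendritic cells, stood at 57.2 ± 13.9 CPM (SD, n = 3) in WT and 57.8 ± 6.02 CPM with IFNa. Its level was 38.2 ± 4.85 CPM in A20 KO, a difference from WT that did not pass (edgeR log2 fold change -0.58; adjusted p = 0.151). The Myc partner Max stood at 181 ± 35.7, 211 ± 21.6 and 153 ± 19.9 CPM in the same order of groups, with no call. E2f1, the E2F activator, stood at 57.7 ± 12.5, 60.2 ± 12.8 and 64.5 ± 6.36 CPM, with no call either. The p53 targets Mdm2 (55.3 ± 19.9, 55.2 ± 17.3 and 72.2 ± 2.38 CPM) and Bax (29.0 ± 13.5, 20.9 ± 3.12 and 30.6 ± 10.2 CPM) did not pass in any comparison.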
